A study of Mus musculus with 40 samples.

Results

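The genes described here carry fatty acids into mitochondria and peroxisomes and break them down by beta-oxidation, and their transcripts were followed in adult mouse hearts over 4 combinations of diets. They were taken by name, 34 genes in all, with the isomerases Eci1 and Eci2 looked up under the older symbols Dci and Peci as well. Of these, 32 had at least 1 probe, and Acsl1 and Hadha were not analysed here because no probe carried their symbol. A gene was described by the probe with its highest mean, and 29 of the 32 genes passed the filter on dim probes (an intensity over the array median in 20 or more of the 40 hearts), out of 8749 genes that passed it in the whole table. Cpt1a, Crot and Abcd2 did not pass. The list of genes was chosen with earlier results of these data known. Shares of the members set beside those of all probes are therefore descriptive.

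The animals were male C57BL/6J mice killed at 9 weeks of age after a fast of 4 hours, with 1 heart and 1 Illumina MouseRef-8 array each. Dams ate a low-fat, high-carbohydrate diet (LF) or one high in fat and low in carbohydrate (HF) from before mating until their pups were weaned on day 21, and the sons then ate either diet. The 4 groups of 10 hearts are LF_LF, LF_HF, HF_LF and HF_HF, where the first letters name the dam's diet and the last the son's own. The fat of both diets came mainly from coconut oil, no allele or drug was involved, litters were culled to at most 10 pups, and the hearts of each group came from 4 or 5 cages. The questions were how these genes differed with the animal's own diet, with the diet of its dam, and with their combination.

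A long-chain fatty acid enters the mitochondrion as a carnitine ester: acyl-CoA is turned into acylcarnitine at the outer membrane by Cpt1, moved across the inner membrane by the translocase Slc25a20, and turned back into acyl-CoA by Cpt2. Each turn of beta-oxidation then takes a dehydrogenation, a hydration, a second dehydrogenation and a thiolytic cleavage, with isomerases and reductases for unsaturated chains, and the electrons of the first step reach the respiratory chain through the electron transfer flavoprotein. Peroxisomes run a parallel pathway for very long and branched chains, and the adult heart draws most of its energy from mitochondrial fatty acid oxidation. Many of these genes are known targets of PPAR receptors, which bind fatty acids.

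The 40 arrays held quantile-normalised fluorescence intensities on a linear scale, from 47.5 to 31454.1 with array medians between 79.2 and 79.5, and their number sets the precision of each fold change. Of 12 cardiomyocyte markers 11 had a probe, and all 11 passed the filter. Scores of liver, exocrine pancreas or skeletal muscle transcripts exceeded 1.5 on the log2 scale in 10 hearts (2 LF_LF, 3 LF_HF, 3 HF_LF and 2 HF_HF). The dim probes split the arrays into sets of 25 and 15, a division read from the data and not from the labels, with 5, 7, 7 and 6 hearts of LF_LF, LF_HF, HF_LF and HF_HF in array set 1. Results that rest on these hearts or sets are given below with and without them. In whole hearts, fewer cells of a type and less RNA per cell cannot be told apart.

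All members that passed the test for the own diet rose on the HF diet. In sons of LF-fed dams 8 of the 29 members rose on the HF diet, against 1.29% of all 12645 tested probes that rose, and 0 fell, against 1.43% of all probes. In sons of HF-fed dams 6 rose, against 0.482% of all probes, and 0 fell. With both dam diets averaged over all 40 hearts, 17 rose, against 3.53% of all probes, and 0 fell, against 3.96%. A call means an adjusted p under 0.05 in limma, a linear model with moderated variances fitted to log2 intensities of all tested probes, with Benjamini-Hochberg adjustment over them. The model treats each heart as independent. Sons on both diets were found in 2 of the 6 cages of LF-fed dams and in 3 of the 6 of HF-fed dams. Standard errors, intervals and p-values of the own diet may therefore be too small or too narrow. The median log2 fold change of the members (HF over LF) was 0.13 in sons of LF-fed dams, 0.22 in sons of HF-fed dams and 0.20 averaged, with 24, 26 and 25 of the 29 values above 0. Without adjustment, 16, 20 and 22 members had p under 0.05 by limma, against 2755, 1040 and 3008 of all 12645 tested probes. Among these, only the peroxisomal thiolase Acaa1a was below 0. Its log2 value was -0.14 in sons of LF-fed dams (95% interval -0.25 to -0.035) and -0.081 in the average (-0.15 to -0.012).

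The first 2 comparisons, each within sons of dams on 1 diet (a dam group), share no array, whereas the averaged one uses the arrays of both. A positive value in both was found for 24 of the 29 members (82.8%), against 32.4% of all tested probes, and 3 members were negative in both. The calls common to both were Slc25a20, Cpt2 and Ech1, which are 37.5% of the calls in sons of LF-fed dams and 50% of those in sons of HF-fed dams. How many of all tested probes were called in both was not counted. No member kept the HF-fed and LF-fed hearts fully apart, so every comparison below is of shifted, overlapping groups. The overlap of hearts was counted for the members only and not over all probes, so it describes each gene and does not set the members apart.

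**Figure D1:**
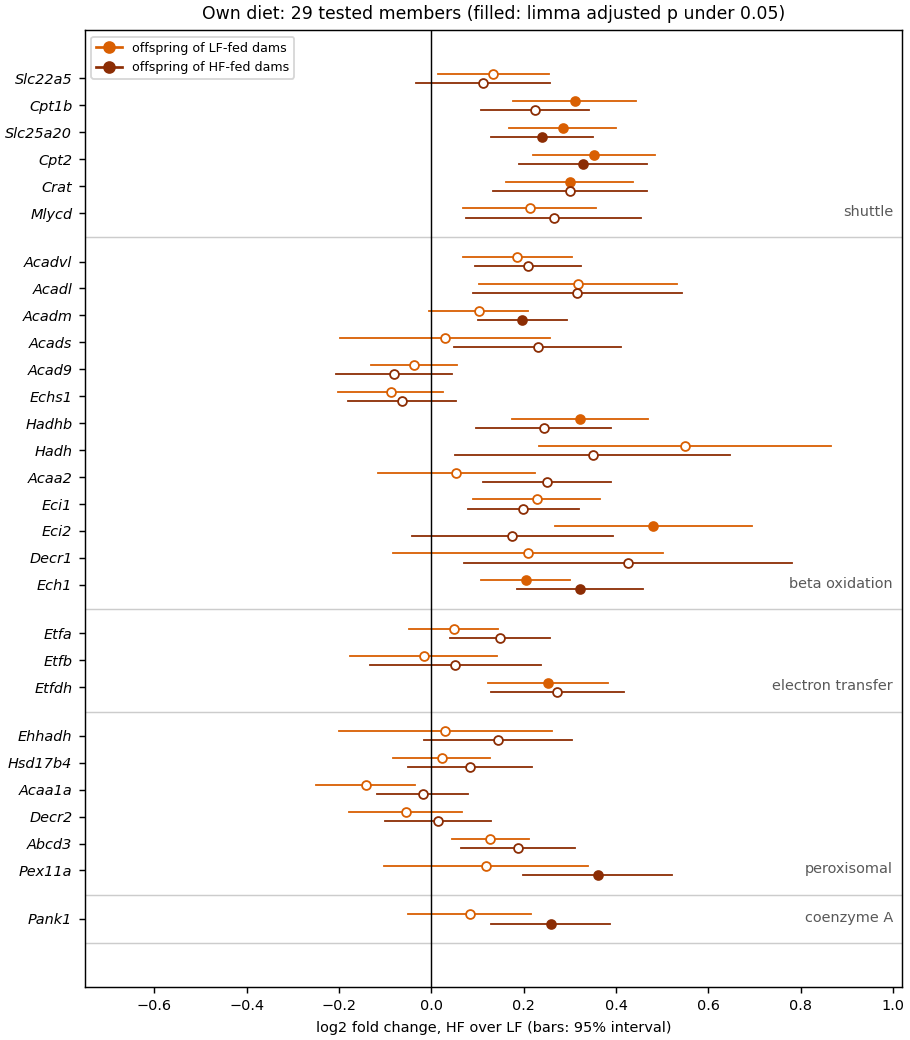
Log2 fold change of HF over LF own diet for the 29 tested members, by arm of the pathway, in sons of LF-fed dams (orange) and of HF-fed dams (brown). Bars are 95% intervals and filled points passed limma: 8 members in sons of LF-fed dams and 6 in sons of HF-fed dams, all to the right of 0. The intervals treat each heart as independent and leave out cage, so they may be too narrow.

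Most of the carnitine shuttle rose with the HF diet in the average. Of its 6 tested members 4 rose in sons of LF-fed dams (Cpt1b, Slc25a20, Cpt2 and Crat), 2 rose in sons of HF-fed dams (Slc25a20 and Cpt2), and 5 rose in the average. The median log2 fold changes were 0.29, 0.25 and 0.26. Intensities below are given as the lowest, the median and the highest of the 10 hearts.

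Cpt2, the palmitoyltransferase of the inner membrane, stood at 1804, 2497 and 2920.1 in LF_LF and at 2746, 3139 and 3421 in LF_HF. It stood at 1871, 2454 and 3162 in HF_LF and at 2899.5, 3044 and 3301 in HF_HF. In both dam groups all 10 HF-fed hearts exceeded the median of the LF-fed hearts, and the groups overlapped through 1 LF-fed heart each, that of highest Cpt2. The rise was 1.28-fold in sons of LF-fed dams (log2 0.35, SE 0.0634, adjusted p = 0.0056) and 1.25-fold in sons of HF-fed dams (log2 0.33, SE 0.0668, adjusted p = 0.0154), and 1.27-fold in the average (adjusted p = 4.04e-06), all by limma.

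Slc25a20, the carnitine-acylcarnitine translocase, stood at 3776, 4629 and 5112 in LF_LF and at 4860.4, 5482 and 5847 in LF_HF. Among sons of HF-fed dams it stood at 3484, 4391 and 4829.8 in HF_LF and at 4585, 5071 and 5847 in HF_HF. Again all 10 HF-fed hearts lay above the LF-fed median in either dam group, and 2 LF-fed hearts in each reached into the HF-fed range. Its log2 fold change was 0.29 (SE 0.0558, limma adjusted p = 0.0102) with LF-fed dams and 0.24 (SE 0.0534, adjusted p = 0.0285) with HF-fed dams. The call with HF-fed dams was lost without any 1 of 5 animals (123, 124, 172 and 174 of HF_HF, 227 of HF_LF), with adjusted p up to 0.063. A second, dimmer probe of Slc25a20 passed in neither dam group (log2 0.10 with LF-fed and 0.30 with HF-fed dams, adjusted p = 0.412 and 0.174) and rose in the average (log2 0.20, SE 0.0595, adjusted p = 0.0316).

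Cpt1b, the muscle isoform of the outer-membrane palmitoyltransferase and the usual control point of the shuttle, stood at 3327, 4318 and 4814 in LF_LF and at 4661, 5187 and 5658 in LF_HF. With HF-fed dams it stood at 3379, 4115 and 4603 in HF_LF and at 4365, 4693 and 5268 in HF_HF. All 10 HF-fed hearts lay above the LF-fed median in both dam groups, while 2 and 3 LF-fed hearts overlapped the HF-fed range. Cpt1b rose in sons of LF-fed dams (log2 0.31, SE 0.0639, adjusted p = 0.0129) and in the average (log2 0.27, SE 0.0429, adjusted p = 4.37e-05), and in sons of HF-fed dams its value was log2 0.22 (SE 0.0565, adjusted p = 0.061) by limma. Its liver counterpart Cpt1a could not be followed: its probe was above the array median on 0 of 40 arrays, with median intensities of 64.0 to 70.1 in the groups.

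Crat, the carnitine acetyltransferase that buffers acetyl-CoA, stood at 742, 1021 and 1211 in LF_LF and at 1064, 1242 and 1352 in LF_HF. The HF-fed dams' sons stood at 814, 992 and 1427 in HF_LF and at 1142, 1207 and 1498 in HF_HF. The log2 fold change was 0.30 in each dam group (SE 0.0667 and 0.0804), but it passed limma with LF-fed dams (adjusted p = 0.0205) and not with HF-fed dams (adjusted p = 0.0898). Every HF-fed heart exceeded the LF-fed median in both. Mlycd, which destroys the Cpt1 inhibitor malonyl-CoA, stood at 1195, 1470.3 and 1729.8 in LF_LF and at 1455, 1628 and 1938 in LF_HF. It stood at 999, 1418 and 1624 in HF_LF and at 1225, 1712 and 1848 in HF_HF, with 6 and 8 LF-fed hearts inside the HF-fed range. Mlycd rose in the average (log2 0.24, SE 0.0587, adjusted p = 0.00786), and its values in the dam groups were 0.21 and 0.26 on the log2 scale (adjusted p = 0.0882 and 0.283). The carnitine importer Slc22a5 passed in none of these comparisons (average log2 0.12, SE 0.0454, adjusted p = 0.0849).

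**Figure D2:**
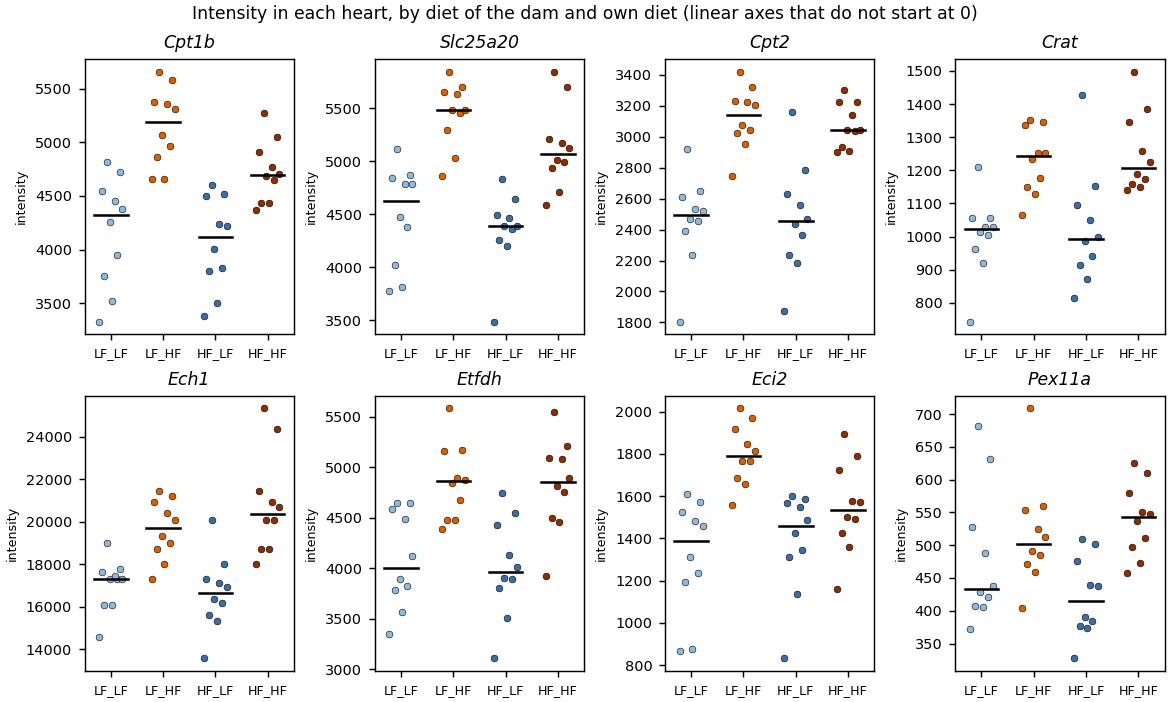
Intensity of 8 members in each of the 40 hearts (points) with the group median (line), on linear axes that do not start at 0, in the groups LF_LF, LF_HF, HF_LF and HF_HF. For Cpt2 the medians are 2497, 3139, 2454 and 3044, and 1 LF-fed heart in each dam group reaches the HF-fed range.

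The start regions of the 3 genes called in both dam groups are shown because the same members moved with the diet in separate animals, together with that of Acadvl as an example of the 4 members with a receptor half-site there. Each sequence is the RefSeq reference of GRCm38.p6, 250 bases before to 50 bases after the start, written 5′ to 3′ along the gene. Capitals mark the half-site AGGTCA of nuclear receptors on either strand.
Slc25a20, chr9:108661886-108662185, plus strand: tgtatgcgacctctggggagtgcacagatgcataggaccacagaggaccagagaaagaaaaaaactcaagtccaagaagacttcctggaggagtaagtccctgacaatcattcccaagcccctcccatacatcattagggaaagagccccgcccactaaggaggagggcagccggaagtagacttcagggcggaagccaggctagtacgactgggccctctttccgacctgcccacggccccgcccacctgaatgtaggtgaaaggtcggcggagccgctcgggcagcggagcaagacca
Cpt2, chr4:107923540-107923839, minus strand: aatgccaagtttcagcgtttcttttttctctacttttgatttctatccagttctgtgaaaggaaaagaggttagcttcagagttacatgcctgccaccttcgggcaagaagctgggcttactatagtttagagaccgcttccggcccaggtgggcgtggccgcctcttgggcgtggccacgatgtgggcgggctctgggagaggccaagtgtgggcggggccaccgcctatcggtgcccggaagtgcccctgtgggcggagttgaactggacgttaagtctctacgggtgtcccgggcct
Ech1, chr7:28825088-28825387, plus strand: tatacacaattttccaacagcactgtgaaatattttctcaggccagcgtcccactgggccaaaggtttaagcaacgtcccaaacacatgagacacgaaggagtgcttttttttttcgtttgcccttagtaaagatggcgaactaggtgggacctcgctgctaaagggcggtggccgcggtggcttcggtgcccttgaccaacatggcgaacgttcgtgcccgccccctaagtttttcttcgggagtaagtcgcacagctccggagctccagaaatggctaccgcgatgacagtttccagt
Acadvl, chr11:70015379-70015678, minus strand: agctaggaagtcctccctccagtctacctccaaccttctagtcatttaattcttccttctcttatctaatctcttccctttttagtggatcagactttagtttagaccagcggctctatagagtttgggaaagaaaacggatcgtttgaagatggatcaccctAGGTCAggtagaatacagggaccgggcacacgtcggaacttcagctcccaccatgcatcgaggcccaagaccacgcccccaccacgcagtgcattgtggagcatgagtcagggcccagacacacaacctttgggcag
Windows of this kind were found for 27 of the 34 genes. AGGTCA, read on both strands, was in the windows of 4 of them (Acadm, Acadvl, Cpt1a and Echs1), and in 16.3% of all 32851 windows. In Acadvl it begins 87 bases before the start on the strand of the gene. The repeat AGGTCANAGGTCA, with any 1 base between the half-sites and which itself contains the shorter motif, was in 0 member windows and in 0.0396% of all windows. The absence of these letters from a window of 300 bases says nothing about receptor binding elsewhere. The member count is by gene and the share over all is by window, and 4 of 27 does not set the members apart. The windows of Slc25a20, Cpt2 and Ech1 hold no half-site. Of the members that hold the half-site, Acadm and Acadvl rose in the average, Echs1 did not pass and Cpt1a was not tested. In that average 17 of all 29 tested members rose, and a link between half-site and rise was not tested.

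Among the enzymes of mitochondrial beta-oxidation, 3 of 13 tested members rose in sons of LF-fed dams (Hadhb, Eci2 and Ech1), 2 in sons of HF-fed dams (Acadm and Ech1) and 8 in the average. Medians of the log2 fold change were 0.20, 0.23 and 0.21. The rises in the average lay in the dehydrogenases of long and medium chains, in 3 isomerases and in 2 enzymes of the later steps.

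Acadvl, the dehydrogenase of very long chains, stood at 4365, 5482 and 5774 in LF_LF and at 5268, 5889 and 6866 in LF_HF. With HF-fed dams it stood at 4271, 5088 and 6006 in HF_LF and at 5482, 5964 and 6866 in HF_HF. It rose in the average (log2 0.20, SE 0.0396, adjusted p = 0.00114), with values close to that in either dam group (log2 0.19 and 0.21, limma adjusted p = 0.0737 and 0.0807). The medium-chain dehydrogenase Acadm stood at 12249, 15477 and 16935 in LF_LF and at 14741, 16478 and 17626 in LF_HF. In the other dam group it stood at 12136, 14426 and 15013 in HF_LF and at 14741, 15981 and 18219 in HF_HF, where all 10 HF-fed hearts lay above the LF-fed median and 4 LF-fed hearts overlapped them. Acadm rose with HF-fed dams (log2 0.20, SE 0.0466, adjusted p = 0.0417) and in the average (log2 0.15, SE 0.035, adjusted p = 0.00533). The call with HF-fed dams was lost on leaving out any 1 of 14 of the 20 animals (adjusted p up to 0.0972).

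Acadl, the long-chain dehydrogenase, stood at 1928, 2785 and 3776 in LF_LF and at 2854, 3499 and 4119 in LF_HF. Its values were 2019, 2809.6 and 4561 in HF_LF and 3156, 3349 and 4814 in HF_HF. It rose in the average (log2 0.32, SE 0.0779, adjusted p = 0.00794), and all 10 HF-fed hearts exceeded the LF-fed median in both dam groups. The short-chain dehydrogenase Acads had an average of log2 0.13 (SE 0.0724, adjusted p = 0.275), and the related Acad9, which also takes part in complex I assembly, log2 -0.059 (SE 0.0372, adjusted p = 0.34). Neither passed limma, and their 95% intervals with LF-fed dams ran from -0.20 to 0.26 and from -0.13 to 0.055. With HF-fed dams the intervals ran from 0.049 to 0.41 for Acads (log2 0.23) and from -0.21 to 0.045 for Acad9 (log2 -0.081).

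Hadhb, the thiolase subunit of the trifunctional protein that handles long chains, stood at 9508, 11961 and 14885 in LF_LF and at 13949, 15622 and 16202 in LF_HF. Sons of HF-fed dams stood at 10847, 12537 and 14741 in HF_LF and at 11902, 14706 and 17788 in HF_HF. The rise passed limma in sons of LF-fed dams (log2 0.32, SE 0.0707, adjusted p = 0.0188) and in the average (log2 0.28, SE 0.0511, adjusted p = 0.000276). With HF-fed dams the value was log2 0.24 (SE 0.0702, adjusted p = 0.139), and 6 LF-fed hearts lay within the HF-fed range against 3 in the other dam group. The start of its partner Hadha, which had no probe, lies 273 bases away on the opposite strand.

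Hadh, the hydroxyacyl-CoA dehydrogenase of shorter chains, stood at 201, 368 and 498 in LF_LF and at 399.9, 509 and 667 in LF_HF. Its values with HF-fed dams stood at 253, 338 and 450.2 in HF_LF and at 219, 407 and 601 in HF_HF. It had the largest average rise among the 29 members, 1.37-fold (log2 0.45, SE 0.109, adjusted p = 0.00725), and one of the widest spreads, with a within-group SD of 0.36 on the log2 scale. Neither dam group passed on its own (limma adjusted p = 0.0532 and 0.451). The hydratase Echs1 (average log2 -0.076, SE 0.0393, adjusted p = 0.237) and the thiolase Acaa2 (average log2 0.15, SE 0.0542, adjusted p = 0.0741) did not pass.

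Ech1, the dienoyl-CoA isomerase that mitochondria and peroxisomes share, stood at 14597, 17293 and 19020.0 in LF_LF and at 17293, 19701 and 21443 in LF_HF. In sons of HF-fed dams it stood at 13577, 16654 and 20094 in HF_LF and at 18012, 20387 and 25339 in HF_HF. It rose in both, 1.15-fold with LF-fed dams (log2 0.20, SE 0.0468, adjusted p = 0.0236) and 1.25-fold with HF-fed dams (log2 0.32, SE 0.0656, adjusted p = 0.0154) by limma, with 7 and 2 LF-fed hearts inside the HF-fed range. Both calls held without any single animal.

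The enoyl-CoA isomerase Eci2 stood at 868, 1386 and 1612 in LF_LF and at 1557, 1791 and 2016 in LF_HF. It stood at 832, 1457 and 1600.3 in HF_LF and at 1162, 1537 and 1893 in HF_HF. In sons of LF-fed dams it rose 1.4-fold (log2 0.48, SE 0.103, adjusted p = 0.0157), the largest called rise there, and all 10 HF-fed hearts were above the LF-fed median. With HF-fed dams it did not pass limma (log2 0.18, SE 0.105, adjusted p = 0.757), and 8 LF-fed hearts lay in the HF-fed range. The difference between the dam groups was itself tested as an interaction and did not pass (log2 -0.31, 95% interval -0.61 to 0.00089, adjusted p = 0.943). Eci1, the other mitochondrial isomerase of this kind, stood at 3125, 4274 and 4893 in LF_LF and at 4211, 5031 and 5632 in LF_HF. Its values with HF-fed dams were 3350.3, 4277 and 5158 in HF_LF and 4531, 4893 and 5352 in HF_HF. It rose in the average (log2 0.21, SE 0.0445, adjusted p = 0.00168). The dienoyl-CoA reductase Decr1 had an average of log2 0.32 (SE 0.116, adjusted p = 0.0816) with the widest within-group spread of all members, an SD of 0.38, and did not pass.

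In the electron transfer arm Etfdh alone passed. This oxidoreductase hands electrons from the flavoprotein to ubiquinone. It stood at 3350.3, 4005 and 4646 in LF_LF and at 4391, 4859 and 5584 in LF_HF. With HF-fed dams it stood at 3107, 3959 and 4741 in HF_LF and at 3926, 4853 and 5542 in HF_HF. Etfdh rose with LF-fed dams (log2 0.25, SE 0.0625, adjusted p = 0.0344) and in the average (log2 0.26, SE 0.0475, adjusted p = 0.000276), and with HF-fed dams had log2 0.27 (SE 0.0696, adjusted p = 0.0654) by limma, with 4 and 5 LF-fed hearts inside the HF-fed range. The call with LF-fed dams was lost on leaving out any 1 of 9 of the 20 animals (13, 14, 100, 101 and 134 of LF_LF, 199, 200, 201 and 207 of LF_HF), with adjusted p up to 0.0647. The subunits of the flavoprotein itself, Etfa (average log2 0.10, SE 0.0348, adjusted p = 0.0725) and Etfb (average log2 0.018, SE 0.0608, adjusted p = 0.903), did not pass.

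In the peroxisomal arm 0 of 6 tested members passed with LF-fed dams, 1 rose with HF-fed dams (Pex11a) and 2 rose in the average (Pex11a and Abcd3), and the median log2 fold changes were 0.027, 0.11 and 0.07. Pex11a, a membrane protein that elongates and divides peroxisomes, stood at 372, 433 and 682 in LF_LF and at 405, 502 and 709 in LF_HF. It stood at 327, 414 and 509 in HF_LF and at 458, 542 and 625 in HF_HF. With HF-fed dams all 10 HF-fed hearts exceeded the LF-fed median and 3 LF-fed hearts overlapped them, and the rise was 1.28-fold (log2 0.36, SE 0.078, adjusted p = 0.0224). With LF-fed dams 9 of 10 did so, but 9 LF-fed hearts lay in the HF-fed range, and the value was log2 0.12 (SE 0.107, adjusted p = 0.525) by limma. A second probe of Pex11a rose in both dam groups (log2 0.31, SE 0.0493, adjusted p = 0.00245, and log2 0.46, SE 0.0718, adjusted p = 0.00198). The call of the first probe was lost without animal 177 or 227 of HF_LF (adjusted p up to 0.0519).

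Abcd3, the peroxisomal acyl-CoA transporter PMP70, stood at 1253, 1405 and 1493 in LF_LF and at 1383, 1532 and 1621 in LF_HF. In the other dam group it stood at 1128, 1290.4 and 1602 in HF_LF and at 1353, 1501 and 1661 in HF_HF. It rose in the average (log2 0.16, SE 0.0352, adjusted p = 0.00335). The enzymes of peroxisomal beta-oxidation did not pass in any of the 7 comparisons. Ehhadh, the bifunctional enzyme and a classical PPAR target of liver, was dim, at 79.5, 104 and 183 in LF_LF and at 89.4, 118 and 139 in LF_HF. It was equally dim with HF-fed dams, at 78.2, 107 and 132 in HF_LF and at 97.3, 115 and 128 in HF_HF, and its 95% intervals on the log2 scale were -0.20 to 0.26 and -0.016 to 0.30. Hsd17b4, Acaa1a and Decr2, a multifunctional enzyme, a thiolase and a dienoyl-CoA reductase, had average values of 0.053, -0.081 and -0.02 (adjusted p = 0.453, 0.136 and 0.812 by limma). Whether the Acaa1a probe also reads its close copy Acaa1b was not tested. The transporter Abcd2 and the octanoyltransferase Crot, at medians of 72.7 to 79.2 and of 60.7 to 67.2 in the groups, were near the array median or below it and were not tested.

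Pank1, a pantothenate kinase that starts coenzyme A synthesis, stood at 950.1, 1334 and 1512 in LF_LF and at 1161, 1381 and 1489 in LF_HF. Among sons of HF-fed dams, Pank1 stood at 1016, 1096 and 1296 in HF_LF and at 1061, 1336 and 1571 in HF_HF. It rose with HF-fed dams (log2 0.26, SE 0.0621, adjusted p = 0.0466) and in the average (log2 0.17, SE 0.0448, adjusted p = 0.0135), and with LF-fed dams had log2 0.083 (SE 0.0643, adjusted p = 0.456) by limma. The first call was lost on leaving out any 1 of 16 of the 20 animals (adjusted p up to 0.0951).

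These counts depended on which hearts were compared. In sons of LF-fed dams the 8 calls became 2 (Cpt2 and Slc25a20) without the hearts that carried another tissue, 2 (the same genes) within array set 1, 0 within array set 2 and 0 on cage means, while the median over the members was 0.17, 0.20, 0.14 and 0.17. In sons of HF-fed dams the 6 calls became 0, 0, 0 and 1 (Cpt2) in the same order, with medians of 0.22, 0.22, 0.23 and 0.23. Leaving out 1 animal left 3 calls without animal 123, 124 or 172 of HF_HF and 2 without animal 227 of HF_LF. In the average the 17 calls became 13, 18, 0 and 14, with medians of 0.19, 0.22, 0.20 and 0.20. Each of these settings uses fewer values than the comparison of all hearts. Some cages held sons on both diets, and with cage as a block among those hearts, a setting chosen after the data were seen, 0 members were called with LF-fed dams (10 hearts of 2 cages, median 0.15), 1 with HF-fed dams (Cpt2, 13 hearts of 3 cages, median 0.19) and 5 in the average (Cpt1b, Cpt2, Crat, Ech1 and Slc25a20, median 0.20), with 23, 23 and 24 of the 29 members above 0.

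Markers of other tissues varied between hearts within every group. For the own diet in the average, 0 of 12 tested liver markers, 0 of 4 of exocrine pancreas and 0 of 6 of adipocytes passed limma in either direction, with medians of 0.027, -0.58 and -0.43 on the log2 scale. The 4 pancreas and the 6 adipocyte markers were each below 0 in HF-fed hearts. All 8 tested skeletal muscle markers were above 0 (median 0.15), and 1 of them rose: Acta1, an actin that the stressed heart also makes, with log2 0.87 (SE 0.19, adjusted p = 0.00295). The liver score ran from -0.92 to 3.51 in LF_LF, -0.78 to 3.15 in LF_HF, -0.62 to 1.77 in HF_LF and -0.60 to 1.94 in HF_HF. The adipocyte score ran from -0.23 to 2.28, -0.24 to 0.39, -0.23 to 2.10 and -0.19 to 2.02 in the same order. The counts without the hearts that carried another tissue are given above, and the part of adipocyte transcripts in the result was not tested.

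For the diet of the dam 0 of the 29 members were called, and hardly any of all tested probes were. With shares this low over all probes, 0 of 29 does not set the members apart. In LF-fed offspring 0 members passed limma, against 0.0395% of all probes, and the members' median log2 fold change (HF over LF dams) was -0.048 with 7 of 29 above 0. In HF-fed offspring 0 passed, against 0% of all probes, with a median of -0.011 and 12 above 0. Averaged over the own diet 0 passed, against 0.388% of all probes, with a median of -0.047 and 6 above 0, where 49.3% of all probes were above 0. In both separate comparisons 13 members (44.8%) were negative, against 26.6% of all probes. The members correlate with one another, and this lean was not tested. Its values with a score of atrial markers as a covariate are given below. The numbers of members with an unadjusted limma p under 0.05 were 1, 2 and 1, against 508, 1429 and 1250 of all 12645 tested probes. Those members were Pank1 in LF-fed offspring and in the average (log2 -0.21, SE 0.0673, adjusted p = 0.862, and log2 -0.12, SE 0.0448, adjusted p = 0.279), and Cpt1b and Eci2 in HF-fed offspring (log2 -0.12 and -0.22, adjusted p = 0.321 and 0.272).

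For the members that rose with the own diet in both dam groups, the dam effect had the following intervals. These intervals treat each heart as independent. Sons of the same cage shared a dam diet, and the hearts of each group came from 4 or 5 cages. The intervals may therefore be too narrow for an effect of the dam. For Cpt2 the 95% interval was -0.17 to 0.18 in LF-fed and -0.10 to 0.059 in HF-fed offspring on the log2 scale. For Slc25a20 it was -0.17 to 0.09 and -0.18 to 0.0047, and for Ech1 -0.16 to 0.08 and -0.039 to 0.20. All 6 tested peroxisomal members were below 0 in LF-fed offspring, between -0.17 and -0.048, and 4 of them were above 0 in HF-fed offspring.

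**Figure D3:**
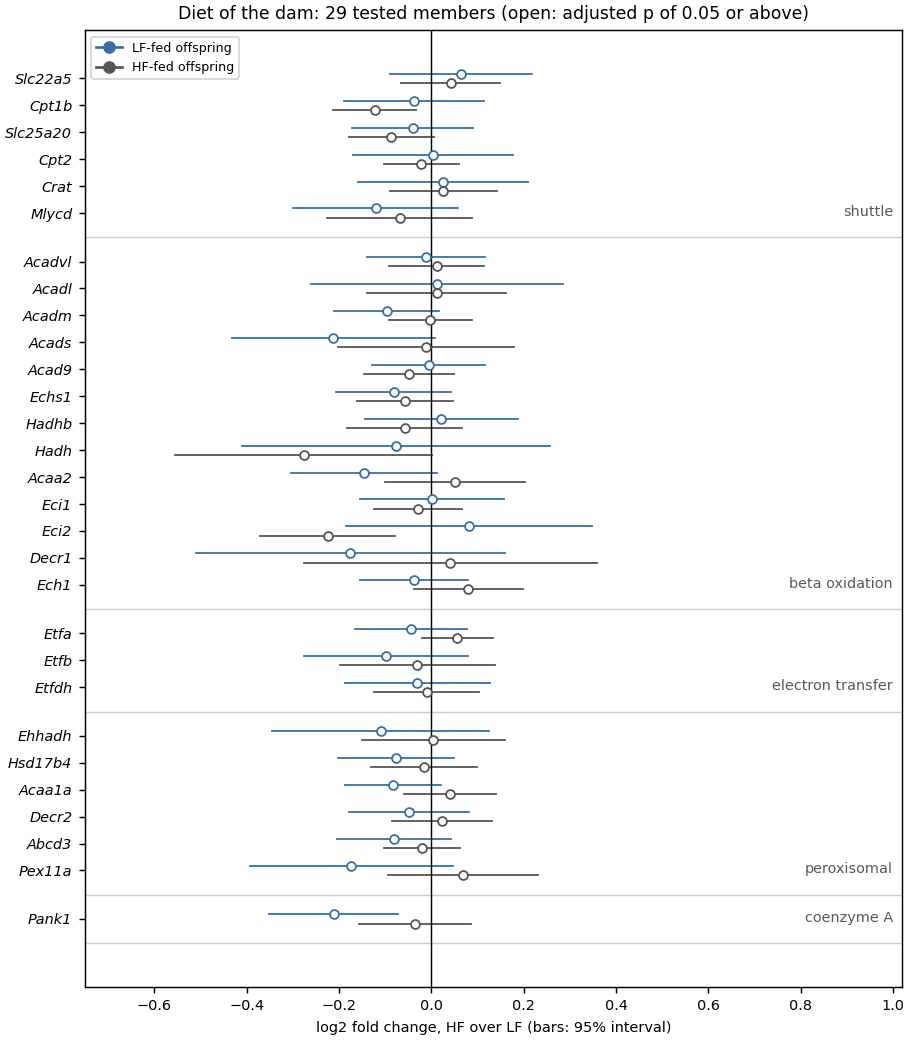
Log2 fold change of HF-fed over LF-fed dams for the 29 tested members, by arm, in LF-fed sons (blue) and HF-fed sons (grey), with 95% intervals. The intervals treat each heart as independent and leave out cage, so they may be too narrow for an effect of the dam. All points are open because 0 members passed limma, and the medians are -0.048 and -0.011.

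Atrial markers differed in level between hearts. For the diet of the dam, 12 of the 13 tested atrial markers had a log2 fold change above 0 in either comparison, with a median of 0.28 in both, and 0 passed limma. Without adjustment, 1 of the 13 had a limma p under 0.05 in LF-fed offspring, 6 in HF-fed offspring and 11 averaged over the own diet. Over all 12645 tested probes these numbers were 508, 1429 and 1250. For the own diet, 8 of 13 were below 0 in sons of LF-fed dams (median -0.16), 12 in sons of HF-fed dams (median -0.22) and 11 in the average (median -0.15). Of these only Kcnj3, a potassium channel subunit of atrial cells, passed limma, and it fell in the average (log2 -0.21, SE 0.0647, adjusted p = 0.0377). The atrial score, the mean log2 intensity of the 14 atrial markers with a probe, each relative to its median, ran from -1.84 to 0.97 in LF_LF, -1.82 to 0.19 in LF_HF, -1.63 to 1.04 in HF_LF and -1.69 to 0.73 in HF_HF. With this score as a covariate the members called were again 0 in every comparison of the dams. Members above 0 were then 13 in LF-fed offspring, 16 in HF-fed offspring and 11 in the average. Without the score they were 7, 12 and 6. The medians with the score were -0.036, 0.0043 and -0.020. With the own diet the score changed the count of 8 calls to 10, the count of 6 to 6 and the count of 17 to 17. Within groups, 26 of the 29 members correlated negatively with the atrial score, from -0.56 for Etfa to 0.19 for Acaa1a (40 hearts, group means removed). The part of atrial transcripts in the members' rise was not tested beyond this covariate.

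Whether the own diet acted differently by dam was tested as an interaction, and 0 of 29 members passed, against 0% of all probes. The number of members with an unadjusted limma p under 0.05 was 0, against 431 of all 12645 tested probes. Among the members the smallest adjusted p was 0.943, and the values ran from -0.31 for Eci2 to 0.24 for Pex11a. A call in one dam group and not in the other, as for Hadhb, Eci2, Pex11a and Pank1, was therefore not shown to be a difference between the dam groups. All 6 tested peroxisomal members had a positive interaction, between 0.061 and 0.24, and 4 of 6 shuttle members a negative one.

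The members did not vary as 1 block from heart to heart. Over the 40 hearts with group means removed, the 406 pairs of members had a median Pearson r of 0.18, and 289 pairs were above 0. These hearts share arrays and normalisation, so the values are descriptive. The highest were Hadhb with Hadh (0.85), Acads with Etfb (0.83), Hadh with Eci2 (0.81) and Acaa2 with Etfb (0.81), and the lowest was Eci2 with Pex11a (-0.66). Eci2, Hadh, Hadhb, Acadl and Etfdh thus varied together across hearts, and so did Etfb, Acads, Acaa2 and Decr1, while pairs across these sets were mostly negative, such as Hadhb with Etfb (-0.56).

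**Figure D4:**
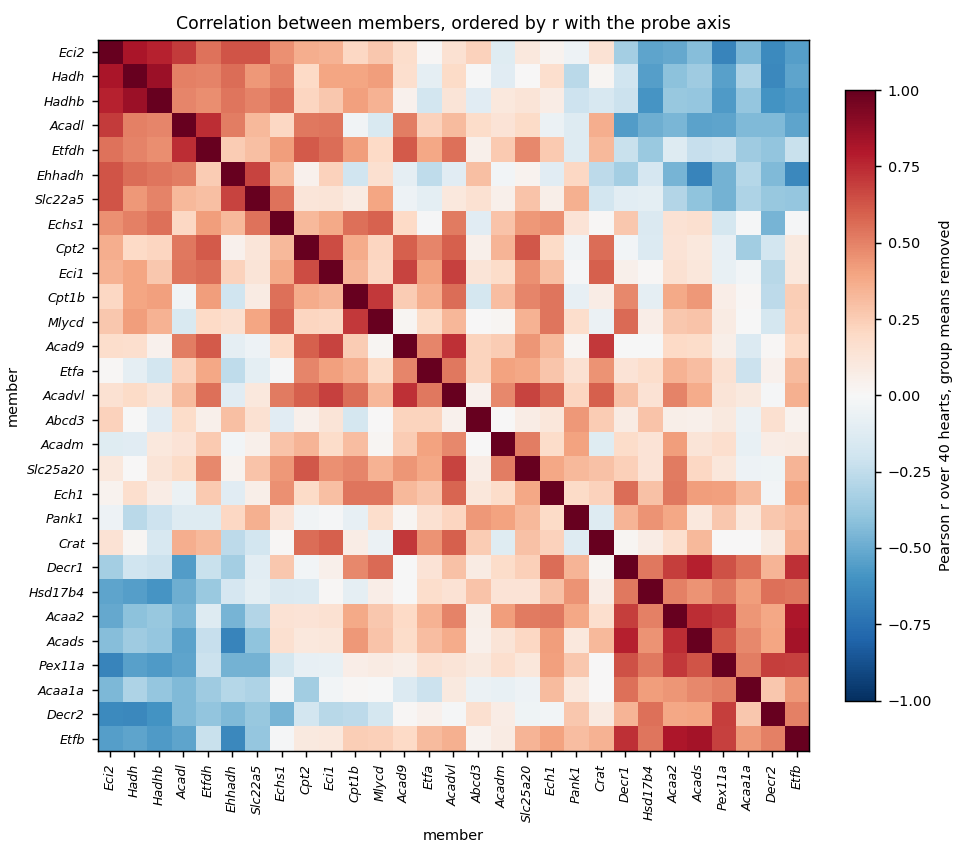
Pearson r between the 29 tested members over 40 hearts with group means removed (red positive, blue negative). Members are ordered by their r with the probe axis, from Eci2 (0.78) to Etfb (-0.62), and the corner blocks of opposite sign hold pairs down to -0.66.

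Probes of the same gene were split in the same way. Of 16 genes with several tested probes, the 34 pairs of probes had a median r of 0.48 within groups, from -0.60 to 0.93, and 5 pairs were below 0. The 3 probes of Acadl had r of 0.59, -0.60 and -0.47 with one another, and their average own-diet values were 0.32, 0.38 and 0.16 on the log2 scale (limma adjusted p = 0.00794, 0.03 and 0.141). Of the 4 probes of Etfa, the 2 that correlated at 0.87 rose in the average (0.20 and 0.16), and the other 2, the highest-mean probe among them, did not pass. For Acaa2 the highest-mean probe missed (adjusted p = 0.0741) and 2 of the other 3 rose. In the same average all 3 probes of Pex11a rose, both probes of Cpt1b, Slc25a20, Acadm and Etfdh rose, and neither probe of Etfb passed. In sons of LF-fed dams 10 of the 53 tested probes of the members passed, 8 of them the highest-mean probes. The other probes of the members called there thus mostly did not pass. Those of Crat are not described here. The second probe of Hadh, much dimmer than the first, did not pass (log2 0.20, SE 0.0651, adjusted p = 0.0546), against 0.45 for the probe described above.

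A component of other genes was then picked because probes of 1 gene moved apart along it. The third principal component of the 12592 tested probes of other genes, taken over hearts with group means removed, carried 15.1% of their variance and is called the probe axis here. Its sign was set so that the Hadhb probe correlates positively with it. Because of how the axis was picked, its match to the split is not an independent result. Probes of the 29 members correlated with the axis from 0.85 (a second probe of Etfdh) to -0.69 (a second probe of Etfb). The scores of cardiomyocyte, atrial and liver markers correlated with the axis at 0.54, -0.42 and 0.12. Expressed in units of its within-group SD, the axis ran from -2.02 to 1.37 in LF_LF with a median of -0.72, from -0.48 to 1.98 in LF_HF with a median of 0.49, from -1.85 to 0.79 in HF_LF with a median of -0.52, and from -1.82 to 1.80 in HF_HF with a median of 0.027. It therefore stood higher in LF_HF than in LF_LF hearts, with overlapping groups.

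With this axis as a covariate, a setting chosen after the data were seen, the calls in sons of LF-fed dams went from 8 to 0, although the members' median was 0.16 and 25 of 29 were above 0, and over all probes the calls went from 344 to 21. In sons of HF-fed dams 6 members were called (Slc25a20, Cpt2, Acaa2, Ech1, Pex11a and Pank1) and 15 in the average. There Mlycd, Acadl, Hadh and Eci2 lost their calls, and Acaa2 and Decr1 gained one. Across the 53 probes, the own-diet values correlated with the axis at 0.61 in sons of LF-fed dams and at 0.12 in sons of HF-fed dams. What the axis stands for was not tested.

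**Figure D5:**
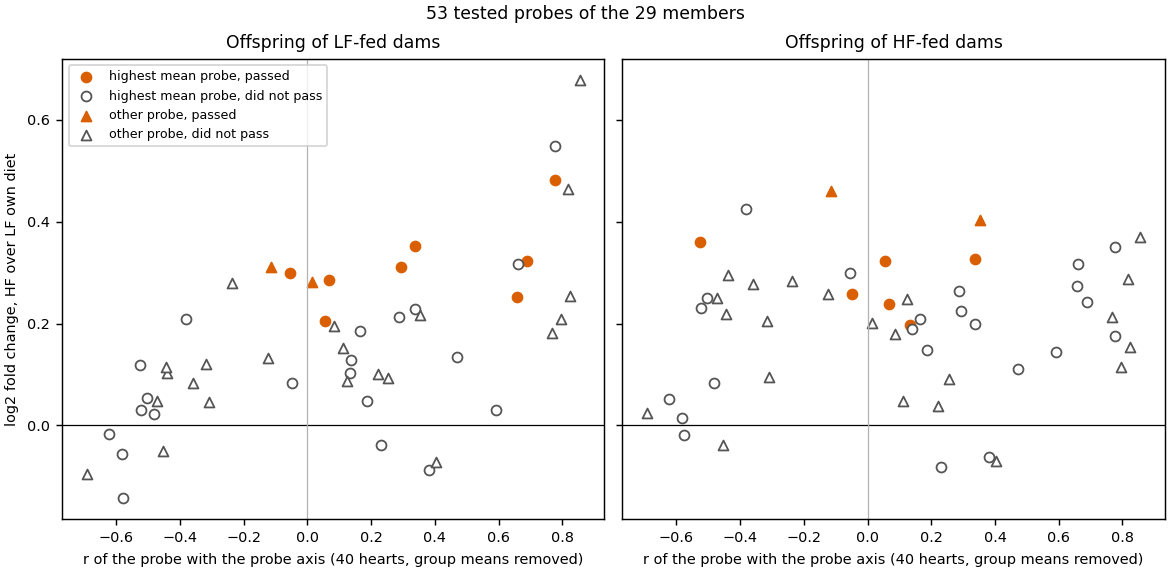
Log2 fold change of HF over LF own diet (y) against the r of each probe with the probe axis (x) for the 53 tested probes of the 29 members, in sons of LF-fed dams (left) and of HF-fed dams (right). Orange symbols passed limma, circles are highest-mean probes and triangles other probes of the same genes, and r across probes is 0.61 on the left and 0.12 on the right.

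Other genes of these organelles were counted in the same way. Of 18 other tested genes of acyl-CoA handling in mitochondria and cytosol, 0 rose and 2 fell in the average of the own diet, with a median of -0.022: Acaca, the acetyl-CoA carboxylase of fatty acid synthesis (log2 -0.97, SE 0.284, adjusted p = 0.0292), and Echdc2, a hydratase-like protein (log2 -0.10, SE 0.0305, adjusted p = 0.0384). Of 25 other peroxisomal genes 3 rose and 0 fell, with a median of 0.013: Cat, the catalase that clears hydrogen peroxide (log2 0.33, SE 0.0841, adjusted p = 0.0106), the membrane protein Pxmp4 (log2 0.12, SE 0.0394, adjusted p = 0.0493) and Pex19, the chaperone of peroxisomal membrane proteins (log2 0.18, SE 0.0288, adjusted p = 4.86e-05). Pex19 also rose in sons of LF-fed dams (log2 0.18, SE 0.0378, adjusted p = 0.0159) and fell with HF-fed dams in the average over the own diet (log2 -0.12, SE 0.0288, adjusted p = 0.0282). Of 6 other genes of coenzyme A synthesis and transport, 2 rose and 1 fell by limma: Pank4 (log2 0.13, SE 0.0347, adjusted p = 0.0185), the mitochondrial coenzyme A carrier Slc25a42 (log2 0.25, SE 0.0692, adjusted p = 0.0226) and, in the opposite direction to Pank1, the kinase Pank2 (log2 -0.11, SE 0.0266, adjusted p = 0.00765). Each of these is a description beside the 17 of 29 members (58.6%) called in the same comparison.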

How the data were processed

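RNA of 40 mouse hearts had been hybridised to Illumina MouseRef-8 beadchips, 1 array each. The deposited intensity values, linear and covering 25697 probes, were exported from BeadStudio and quantile-normalised across all hearts by the authors. Tested on the file, sorted columns matched to within 1 unit. The version of BeadStudio is not given in the sources used here. Background was not subtracted and detection p-values were not used, which leaves the signal of dim probes over background unknown. Symbols came from the probe annotation through Entrez identifiers and the gene table of GRCm38.p6 (23978 probes with 1 symbol, 1719 with none).

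Log2 intensities were fitted in limma 3.58.1 (R 4.3.3), the prior variance following a trend on intensity. Tests covered the 12645 probes whose intensity exceeded that array's median in 20 or more hearts, and p-values were adjusted over all of them at a false discovery rate of 5%. Each pairwise comparison used its own 20 arrays, and the interaction and the averages used all 40. The fit was tested on simulated data with independent noise for each probe and heart. Those data held no cages, array sets or correlation between probes, so the test says nothing about their effect on the calls. Animals were separate mice, numbered by the labels, and tied only by cage (sons on both diets shared 2 cages where the dam was LF-fed and 3 where it was HF-fed). A marker score is the mean log2 intensity over the genes of a list with a probe, each relative to its median over the hearts. All 34 members were described, with values in every group for those that passed in at least 1 of 7 comparisons and for a few fixed genes whatever their result. The members and lists were chosen with earlier results of these data known. The alternatives were the filter, a background subtraction, the variance trend, array weights, cage as a block and as means, all 40 arrays in each fit, 1 probe per gene, the array sets, the hearts with another tissue, the atrial score and, added after the data were seen, the probe axis and cage as a fixed block in the cages that held both diets.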

Additional observations from a re-analysis of the deposited data

Results flagged for a closer look

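In each group of 10 hearts the highest and the lowest value of the 32 members with a probe were set against the next one on the log2 scale. Of 128 groups, 11 had a heart that stood apart from the rest by Dixon's criterion, where chance gives about 1 in 20 groups. They concerned 9 genes and 9 hearts. Among LF_LF hearts, Acaa2 stood at 6840 in animal 14 (next 5064), Eci1 at 3125 in animal 101 (next 4054), Pank1 at 950.1 in animal 134 (next 1198) and the dim Abcd2 at 67.4 in animal 14 (next 75.3). In LF_HF, Pank1 stood at 1160.5 in animal 199 (next 1339). Among HF_LF hearts, Slc25a20 stood at 3484 in animal 109 (next 4200.3), Acadl at 4561 in animal 108 (next 3080), Eci2 at 832 in animal 126 (next 1138) and Etfb at 12136 in animal 126 (next 9713). In HF_HF, Hadh stood at 219 in animal 124 (next 372) and Abcd2 at 115 in animal 183 (next 86.6). Animals 14, 109, 124, 126, 101 and 134 were also among the hearts lowest on the probe axis.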

How the results depend on the processing

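No member changed direction in a comparison where it was called, under any of the alternatives. The 8 calls in sons of LF-fed dams became 0 on cage means, 2 within array set 1, 0 within array set 2, 2 without hearts that carried another tissue, 0 with the probe axis as a covariate and 0 with cage as a replicate block in the cages that held both diets, and lay between 7 and 10 otherwise. The 6 calls in sons of HF-fed dams became 3 with no filter on dim probes, 12 with array weights, 1 on cage means, 1 with the same cage block, 10 with all 40 arrays in the fit, and 0 within array set 1, within array set 2 and without hearts that carried another tissue. The 17 calls in the average became 0 within array set 2 and 5 with the cage block, and lay between 13 and 20 otherwise. With 1 animal left out the counts ran from 7 to 11 in sons of LF-fed dams and from 2 to 8 in sons of HF-fed dams. The dam diet and the interaction called 0 members under each alternative run for them (1 animal was left out only in the 4 comparisons of 20 hearts). The cause of these changes was not tested, beyond the smaller number of hearts or cages in several of them. Animal numbers tie no heart of one group to a heart of another, so the pairing was by cage. Signal over background is unknown, so dim members (Cpt1a, Crot, Abcd2, Ehhadh, Decr2) set no limit on the true level.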
